A study of Canis lupus familiaris with 18 samples.

Results

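Gene expression in gonadal fat was compared between female beagles fed without limit and female beagles fed to hold their body weight. The comparison took every array labelled as gonadal adipose tissue, 9 of the 18 arrays of the series, and set 5 ad libitum dogs (dogs 2, 5, 6, 7 and 8) against 4 control dogs (dogs 1, 3, 4 and 9). All 9 were intact females, 4 years old, given the same commercial food (Purina Pro Plan Performance Formula) for 24 weeks after random assignment, and all were sampled after an overnight fast. Control dogs were lean and ad libitum dogs obese at sampling, per the series text. Each array held RNA of a whole piece of tissue from 1 dog on an Affymetrix canine array, which reads each transcript through a group of short probes, a probe set. The same dogs gave the 9 subcutaneous arrays of the series, which enter below only for the error estimate and as a comparison.

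Gonadal fat lies in the abdomen beside the reproductive tract and belongs to the visceral depots, which are covered by mesothelium and are known to differ from subcutaneous fat in developmental genes and in metabolic response. In fat cells, sustained overfeeding is known to raise insulin-driven fatty acid synthesis and triglyceride storage, and enlarged fat cells release more of the hormone leptin. Obesity of visceral fat is also associated in many species with macrophage entry and remodelling of the matrix.

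The deposited values are log2 signals, so a difference of 1 is a 2-fold difference. Differences below are ad libitum minus control in log2 units, with standard errors from limma after ±, unless SD is given. Of 42924 probe sets that are not array controls, 21484 reached a log2 signal of 4, called the floor below, in at least 4 of the 18 arrays and were tested. They hold 8656 genes with a single symbol, each read from its brightest probe set. Arrays have no read depth, and the number of dogs limits the precision. The 3' minus 5' signal of actin, a measure of RNA length, was 3.31 ± 0.91 (SD, n = 5) in ad libitum and 2.91 ± 0.91 (SD, n = 4) in control arrays. That difference of 0.40 had an exact permutation p of 0.532, two-sided.

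The arrays carried the transcripts of fat. ADIPOQ, the gene of adiponectin, lay between 14.08 and 15.56 in all 9 arrays, and FABP4, the fatty acid carrier of fat cells, between 14.87 and 15.57. Markers of visceral fat and its mesothelium were present in every array as well. WT1 ranged from 5.10 to 9.95, GATA6 from 4.84 to 7.39 and UPK1B from 6.10 to 8.61.

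Single arrays stood apart by transcripts of other tissues. In ad libitum dog 2 the mean of 14 skeletal muscle genes was 10.66, against 4.28 to 5.14 in the other 8 gonadal arrays, and ACTA1, the actin of skeletal muscle, stood at 16.24. In ad libitum dog 6 the mean of 4 motile cilia genes was 10.08, against 6.07 to 6.42 elsewhere. The list named 29 genes, and the rest of them did not pass the filter or had no probe set under their symbol. OVGP1, the oviduct glycoprotein, stood at 11.31 in dog 6 and at 4.18 to 5.62 in the others. FOXJ1, the regulator of ciliated cells, stayed below the floor in all 9 arrays (highest 1.72). So did CYP11A1, the first enzyme of steroid synthesis (highest 3.14), and INHA, the inhibin alpha chain made by granulosa cells, passed the floor in 1 array (4.33). In control dog 3 the mean of 13 genes of pericytes and smooth muscle was 11.26, against 9.24 to 10.19 elsewhere.

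Transcripts of the fat cell also varied within both groups. The mean of 24 genes of adipocyte identity was 11.72, 10.004, 11.85 and 10.72 in control dogs 1, 3, 4 and 9. In ad libitum dogs 2, 5, 6, 7 and 8 it was 12.15, 11.30, 10.18, 11.80 and 11.70. The lowest values were those of control dog 3 and ad libitum dog 6, and the 2 groups overlapped over nearly their whole range. In whole tissue, fewer cells of a type and less RNA per cell cannot be told apart. These 2 arrays also lay farthest from the rest of their groups. The median absolute distance to the mean of the other dogs was 0.37 for dog 3 and 0.51 for dog 6, against 0.22 to 0.31 for the other 7.

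**Figure D1:**
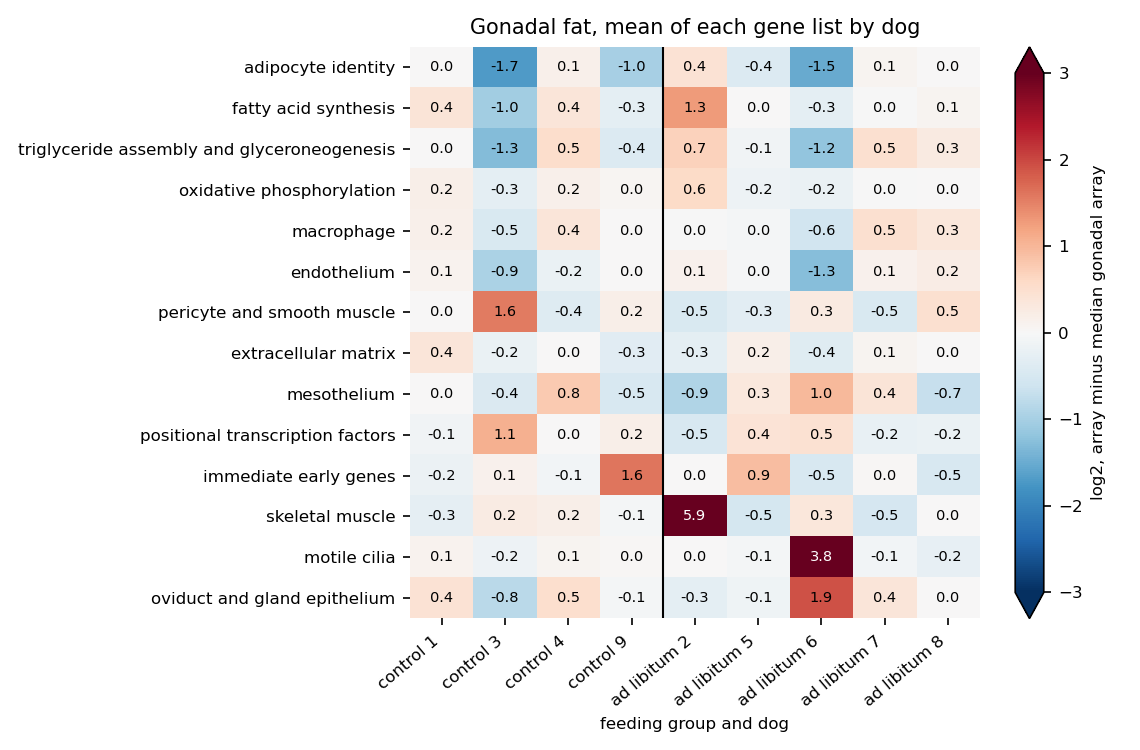
Mean log2 signal of 14 gene lists in each of the 9 gonadal arrays, as the difference from the median gonadal array (colour and printed number, log2 units), with control dogs left of the line and ad libitum dogs right of it. Adipocyte genes were lowest in control dog 3 and ad libitum dog 6, skeletal muscle genes stood out in dog 2 and motile cilia genes in dog 6.

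No gene of gonadal fat passed the adjusted threshold between the feeding groups. Of 21484 probe sets 0 passed an adjusted p of 0.05 (limma, Benjamini-Hochberg), which is 0% called, and the smallest adjusted p was 0.99994. At an unadjusted p under 0.05 there were 531 probe sets (2.47%), 279 with a higher and 252 with a lower mean in ad libitum dogs. That share is below the one such a threshold gives by chance. Rescaling the arrays turned the split without bringing a probe set past the adjusted threshold. A second quantile normalization gave 187 higher and 433 lower, and setting the arrays to 1 median gave 229 higher and 317 lower. The count after adjustment was 0 in every refit that was run, and the smallest adjusted p of any of them was 0.217 (limma). By gene, 113 of 8656 had an unadjusted p under 0.05 and a higher mean (1.31%) and 95 a lower mean (1.1%).

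Feeding differences in gonadal fat were small at the typical gene. The median size was 0.14, and 121 of 8656 genes differed by more than 1, 77 upward and 44 downward. In the subcutaneous fat of the same dogs the median size was 0.32 and 740 genes differed by more than 1. There 170 genes (1.96%) passed the adjusted threshold with a higher mean and 30 (0.347%) with a lower mean. Subcutaneous control dogs 3 and 4 held skeletal muscle transcripts, with list means of 11.18 and 9.85, against 4.32 to 6.05 in the other subcutaneous arrays. The motile cilia mean of subcutaneous control dog 4 was 8.78, against 6.59 to 7.29 in the others. All subcutaneous differences given here include these arrays. For 6358 genes (73.5%) the 95% interval of the gonadal difference lay wholly within 1 log2 unit of 0, so a 2-fold difference in either direction fell outside it. That count includes genes near the floor in gonadal fat, where the signal may understate a change. It also includes very bright genes such as FABP4, for which this was not tested. For 443 genes the interval reached past 1 on both sides, and for those genes a 2-fold difference in either direction fell within it. The median interval was the estimate plus or minus 0.52, with 0.30 and 1.09 at the 10th and 90th percentiles.

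The spread among dogs was larger in gonadal fat. The median SD over genes was 0.36 in both gonadal groups, 0.28 in subcutaneous controls and 0.32 in subcutaneous ad libitum arrays. Without dog 3 the gonadal control SD was 0.28, and without dog 6 the ad libitum SD was 0.25. Whether the feeding difference itself depended on depot was tested as an interaction. It gave 0 of 21484 probe sets at an adjusted p of 0.05 (smallest 0.254, limma) and 1344 at an unadjusted p under 0.05. By gene, the latter were 547 of 8656 (6.32%). That fit did not pair the gonadal and subcutaneous arrays of a dog. The labels say that the subcutaneous arrays were deposited once before and say nothing of the kind for the gonadal ones. A batch of arrays therefore cannot be told apart from the depot, though each feeding contrast lies within 1 depot.

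**Figure D2:**
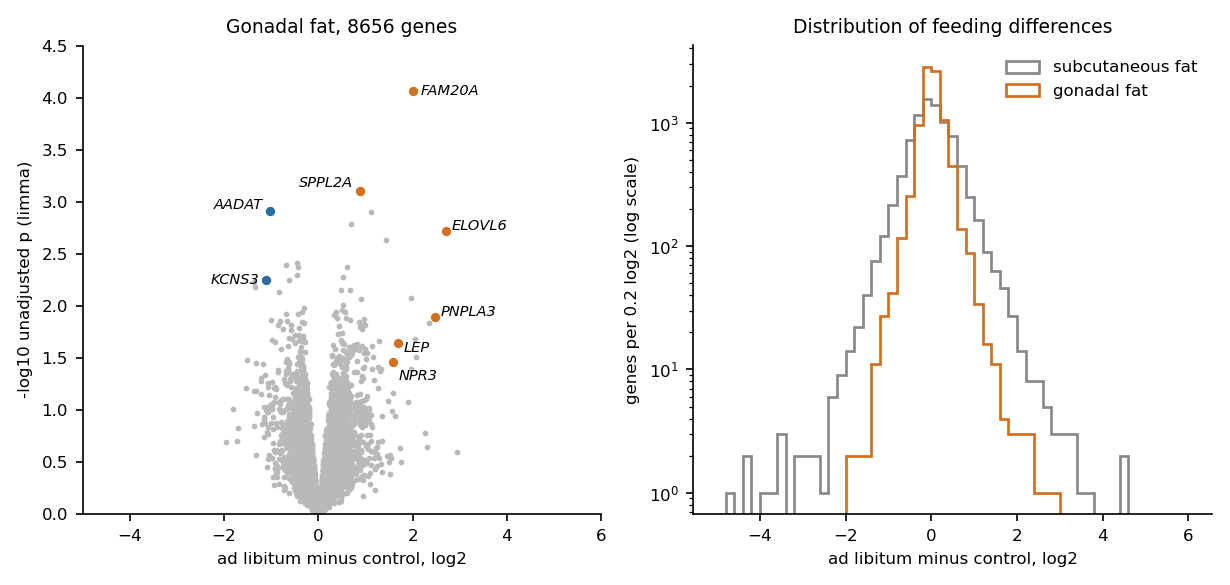
Left, log2 difference (ad libitum minus control) of 8656 genes in gonadal fat against −log10 of the unadjusted limma p, with 8 named genes coloured by the sign of their difference. Right, the number of genes per 0.2 log2 units of difference on a log scale in gonadal and subcutaneous fat, where the gonadal distribution is the narrower (median size 0.14 against 0.32).

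LEP, the gene of leptin, was among the larger differences. Its log2 signal was 10.52, 7.36, 11.16 and 9.39 in control dogs 1, 3, 4 and 9, and 11.59, 11.37, 10.06, 11.72 and 11.74 in ad libitum dogs 2, 5, 6, 7 and 8. Of the 5 ad libitum values 4 lay above every control, and dog 6 lay within the control range. The difference was 1.69 ± 0.67, with a 95% interval from 0.27 to 3.11. Without control dog 3, whose adipocyte genes were also low, it was 0.94 and no longer had an unadjusted p under 0.05. Leaving out control dog 4 gave 2.21, the largest value when single dogs were left out. In subcutaneous fat the LEP difference was 2.71. The gonadal minus subcutaneous interaction was -1.02 ± 0.95 (adjusted p = 0.793, limma).

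ELOVL6, which lengthens fatty acids made from carbohydrate, separated the groups. Control dogs 1, 3, 4 and 9 stood at 3.35, 3.38, 5.19 and 3.38, so only dog 4 was above the floor. Ad libitum dogs 2, 5, 6, 7 and 8 stood at 8.75, 6.25, 5.81, 5.60 and 6.26. Every ad libitum array lay above every control array, with a gap of 0.41 between the nearest pair, and dog 2 lay far above the rest. The difference was 2.71 ± 0.74 (95% interval 1.15 to 4.27), or at least 4.71-fold with control values under the floor set to it. It ranged from 2.16 to 3.17 when single gonadal arrays were left out, the lowest without dog 2.

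Other genes of fatty acid synthesis differed less than ELOVL6. FASN, the fatty acid synthase, was 13.01, 9.06, 11.84 and 10.98 in control dogs 1, 3, 4 and 9, and 13.76, 10.61, 10.47, 10.89 and 11.14 in ad libitum dogs 2, 5, 6, 7 and 8. Control dog 3 was the lowest and ad libitum dog 2 the highest, and the groups overlapped. The difference was 0.15 ± 0.91, and -0.57 without control dog 3. ACLY, which makes cytosolic acetyl-CoA, differed by 0.78 ± 0.45 and was highest in dog 2 (13.77). ACACA, acetyl-CoA carboxylase, differed by -0.19 ± 0.45 and SCD, the stearoyl-CoA desaturase, by 0.24 ± 0.39. FADS1, which desaturates long polyunsaturated chains, differed by -1.09 ± 0.63 (95% interval -2.43 to 0.25). SREBF1, the transcription factor that insulin uses to drive this pathway, differed by 1.03 ± 0.54 (95% interval -0.11 to 2.17). Of 15 measured genes of the pathway 12 were higher on average and 3 lower. Only 1 had an unadjusted p under 0.05, a higher one, beside 1.31% higher and 1.1% lower of all genes. The median difference was 0.20, against 0.0046 over all genes. That median was -0.05 without control dog 3, 0.0096 without ad libitum dog 2 and 0.37 without ad libitum dog 6.

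PNPLA3, a lipid droplet protein whose gene responds to insulin and carbohydrate feeding, had the second largest difference among these lipid genes. Control dogs 1, 3, 4 and 9 stood at 3.72, 2.97, 6.03 and 5.86, and ad libitum dogs 2, 5, 6, 7 and 8 at 8.65, 6.71, 4.89, 7.59 and 7.77. Only dog 6 fell within the control range. The difference was 2.48 ± 0.89 (95% interval 0.60 to 4.36). It was 1.92 without control dog 3, and its unadjusted p was then above 0.05.

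The remaining genes that coat the lipid droplet or release fatty acids from it gave a mixed picture. PLIN3, a droplet coat protein of many tissues, differed by 0.41 ± 0.16 (95% interval 0.08 to 0.74), and its unadjusted p was above 0.05 without control dog 3 (0.35) or ad libitum dog 8 (0.30). PLIN2, the coat protein of small droplets, differed by 0.41 ± 0.22. PLIN1, the coat protein of the fat cell's large droplet, differed by -0.12 ± 0.98, with values from 7.93 to 11.39 spread over both groups. LIPE, hormone-sensitive lipase, differed by 1.07 ± 0.63, with an unadjusted p under 0.05 without control dog 4 (1.48) and without ad libitum dog 6 (1.44). PNPLA2, the first lipase of triglyceride breakdown, differed by -0.08 ± 0.50. Of 11 measured genes of droplets and lipases 8 were higher on average. Of those 8, 2 had an unadjusted p under 0.05, PNPLA3 and PLIN3, beside 1.31% higher of all genes. The median was 0.37, and -0.07 without control dog 3.

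Genes that assemble triglyceride gave values that moved with single arrays. DGAT2, which makes triglyceride from diglyceride, differed by 0.98 ± 0.56 (95% interval -0.20 to 2.15). It was 0.63 without ad libitum dog 2, its highest array at 14.08, and its unadjusted p was under 0.05 without control dog 4 (1.45) and without ad libitum dog 6 (1.29). GPAM, which starts glycerolipid synthesis, differed by 0.98 ± 0.91, with values from 4.05 to 8.19 in controls and from 4.22 to 8.03 in ad libitum dogs. PCK1, an enzyme of glyceroneogenesis, which supplies the glycerol backbone, differed by 0.38 ± 0.52, and by 0.89 without ad libitum dog 6, with an unadjusted p under 0.05. Of 13 measured genes 9 were higher on average, with a median of 0.18. None had an unadjusted p under 0.05 with all dogs, beside 1.31% higher and 1.1% lower of all genes. Without ad libitum dog 6 the median was 0.56 and 2 genes had one, and without control dog 3 the median was 0.01.

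Markers that define the fat cell differed by less than their spread. The ADIPOQ difference was 0.03 ± 0.35 (95% interval -0.71 to 0.76), so a 2-fold change lay outside the interval. FABP4 differed by 0.04 ± 0.13 (95% interval -0.25 to 0.32), the narrowest interval of these genes. ADIPOQ (14.08 to 15.56) and FABP4 (14.87 to 15.57) read close to the highest signal in the data, 16.51. Whether differences are compressed at such bright signals was not tested. The intervals of these genes therefore bound the difference in signal and not that in transcript amount. PPARG, the master regulator of fat cell formation, differed by 0.14 ± 0.48, and LPL, which frees fatty acids from circulating lipoproteins, by -0.21 ± 0.34. The sign of the ADIPOQ difference turned when the arrays were set to 1 median and when control dog 3 or ad libitum dog 2 was left out. Of 24 measured genes of adipocyte identity 17 were higher on average. Only LEP had an unadjusted p under 0.05, beside 1.31% higher and 1.1% lower of all genes. The median was 0.15, and 0.46 without ad libitum dog 6 and -1.9e-05 without control dog 3.

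**Figure D3:**
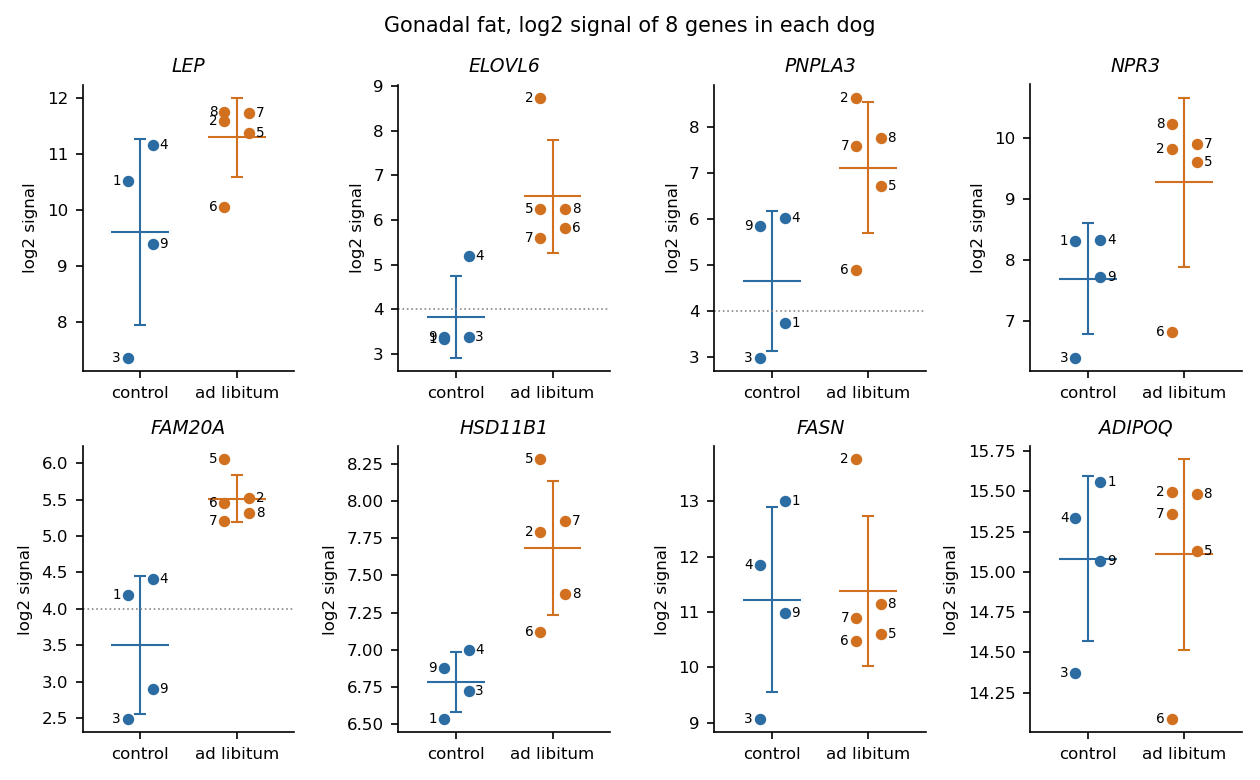
Log2 signal of 8 genes in each gonadal array, with each point labelled by dog number, a horizontal line at the group mean and bars of 1 SD (4 control and 5 ad libitum dogs); the dotted line marks the floor of 4 where values come near it, and each panel has its own axis. FAM20A, ELOVL6 and HSD11B1 had no overlap between the groups, whereas ADIPOQ and FASN overlapped widely.

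FAM20A had the smallest p of the 8656 genes. It encodes a secretory pathway protein that activates the kinase FAM20C, which phosphorylates secreted proteins. Control dogs 1, 3, 4 and 9 stood at 4.20, 2.48, 4.41 and 2.90, and ad libitum dogs 2, 5, 6, 7 and 8 at 5.53, 6.06, 5.46, 5.21 and 5.32. The lowest ad libitum array was 0.80 above the highest control, the widest gap of any gene in that direction, and dogs 3 and 9 were below the floor. The difference was 2.02 ± 0.39 (95% interval 1.19 to 2.85), or at least 2.57-fold with values under the floor set to it. Leaving out single gonadal arrays gave 1.68 to 2.32, and the whole set of refits 1.42 to 2.32. The signals were dim, close to the floor. In subcutaneous fat the difference was 1.16 (adjusted p = 0.106, limma).

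Groups without any overlap were found for 23 genes with all ad libitum arrays higher (0.266%) and 46 with all lower (0.531%). After FAM20A and ELOVL6 the widest gaps upward were those of CDK12, FAM91A1 and SPPL2A. SPPL2A, a protease that cuts proteins within membranes, was 4.73 to 5.83 in controls and 6.04 to 6.41 in ad libitum dogs. Its difference was 0.88 ± 0.21 (95% interval 0.43 to 1.33), and 1.07 in subcutaneous fat (adjusted p = 0.0245, limma). HSD11B1, which turns inactive glucocorticoid into its active form inside fat, also separated the groups. Control dogs stood at 6.53, 6.73, 7.00 and 6.88, and ad libitum dogs 2, 5, 6, 7 and 8 at 7.79, 8.28, 7.12, 7.86 and 7.38. The gap was 0.12, and the difference was 0.90 ± 0.49 (95% interval -0.13 to 1.93), with the error taken from the arrays of both depots. In subcutaneous fat the HSD11B1 difference was -0.35 (interaction 1.25 ± 0.69, adjusted p = 0.748, limma).

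Downward, the widest gaps belonged to LOC477556, AADAT, KCNS3, LOC607467 and DKC1. AADAT, which transaminates kynurenine and aminoadipate, was 7.55, 7.78, 7.58 and 7.41 in control dogs 1, 3, 4 and 9. It was 6.34, 6.77, 6.10, 6.71 and 6.85 in ad libitum dogs 2, 5, 6, 7 and 8. The controls were tightly grouped and every ad libitum array lay at least 0.56 below them. The difference was -1.03 ± 0.26 (95% interval -1.58 to -0.47), and -0.92 in subcutaneous fat (adjusted p = 0.0697, limma). KCNS3, a modifier subunit of voltage-gated potassium channels, was 6.62 to 7.79 in controls and 5.33 to 6.21 in ad libitum dogs (-1.11 ± 0.35, 95% interval -1.84 to -0.37). LOC477556 was 10.75 to 11.33 in controls and 9.01 to 10.08 in ad libitum dogs, a gap of 0.67. DKC1, which modifies ribosomal RNA, differed by -0.64 ± 0.28, but 1 of its 3 probe sets gave -0.0028.

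The other genes with small unadjusted p values came from many processes. On the higher side stood EPDR1, a secreted protein of fat cells (1.12 ± 0.29), the chromatin proteins HMGB3 (1.43 ± 0.40) and YEATS2 (0.69 ± 0.18), the helicase MCM9, the transcription kinase CDK12, the repressor E2F6 and the cyclin Y relative CCNYL1. EPDR1 was 7.65 to 9.66 in controls and 9.57 to 10.24 in ad libitum dogs, so that only control dog 4 reached the ad libitum range. HMGB3 was highest in dog 6 (9.04), the array with cilia transcripts. On the lower side stood NPR2, the receptor for C-type natriuretic peptide (-0.63 ± 0.20), SLC22A3, an organic cation transporter (-1.34 ± 0.43), ACP3, an acid phosphatase (-0.69 ± 0.21), and SUPT7L, a subunit of a histone acetylation complex (-0.84 ± 0.28). RASGRP2, an exchange factor for Rap proteins, TRIM68, a ubiquitin ligase, and VPS16, a vesicle tethering subunit, differed by -0.42 to -0.45. For TRIM68 and VPS16 other probe sets of the gene gave differences above 0 (0.23 and 0.07). SLC22A3 was lowest in dog 6 (2.64), where it was below the floor, and its difference was -0.83 without that dog.

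NPR3, the clearance receptor that removes natriuretic peptides, had a difference of the other sign than NPR2. It was 8.32, 6.39, 8.33 and 7.72 in control dogs 1, 3, 4 and 9, and 9.82, 9.60, 6.82, 9.89 and 10.22 in ad libitum dogs 2, 5, 6, 7 and 8. Ad libitum dogs 2, 5, 7 and 8 exceeded every control, and dog 6 was below all controls but dog 3. The difference was 1.58 ± 0.69 (95% interval 0.13 to 3.03). It was 1.15 without control dog 3 and 2.20 without ad libitum dog 6. The unadjusted p was above 0.05 when any 1 of dogs 2, 3, 5, 7, 8 and 9 was left out. AGT, the angiotensin precursor, differed by 1.97 ± 0.89 (95% interval 0.10 to 3.84), with its lowest array again control dog 3 (3.74). It was 1.13 without that dog, and the unadjusted p was above 0.05 when any 1 of dogs 2, 3, 5, 7 and 9 was left out. AGT and LEP were the 2 adipokine genes of 15 with an unadjusted p under 0.05, beside 1.31% higher and 1.1% lower of all genes. The median of the adipokine list was 0.03.

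A set of 25 genes of fat, named for their known roles and with earlier results of these data known, shows the 2 depots side by side. Of the 25, 20 had a higher ad libitum mean in gonadal fat and 22 in subcutaneous fat, and for 21 the gonadal difference was the smaller in size. In gonadal fat 5 had an unadjusted p under 0.05, all higher (LEP, ELOVL6, PNPLA3, NPR3 and FAM20A), beside 1.31% higher and 1.1% lower of all genes. Since the set was named with earlier results known, that count is a description and no test. Some of the 25 were chosen for their subcutaneous difference, so the smaller gonadal values are a description and no test. The interaction had an unadjusted p under 0.05 for 4 of the 25, beside 6.32% of all genes, and their adjusted p was 0.748 (limma). PCK1 differed by 0.38 in gonadal and 2.36 in subcutaneous fat (interaction -1.98 ± 0.74). LOX, which crosslinks collagen and elastin, differed by 1.07 and 3.29 (interaction -2.22 ± 0.93). Its gonadal difference was 0.60 without control dog 3 and 1.64 without ad libitum dog 6. CDO1, cysteine dioxygenase, differed by -0.54 and -3.10 (interaction 2.56 ± 0.78), and ACSL1, which activates fatty acids, by 0.52 and 1.67 (interaction -1.15 ± 0.51).

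**Figure D4:**
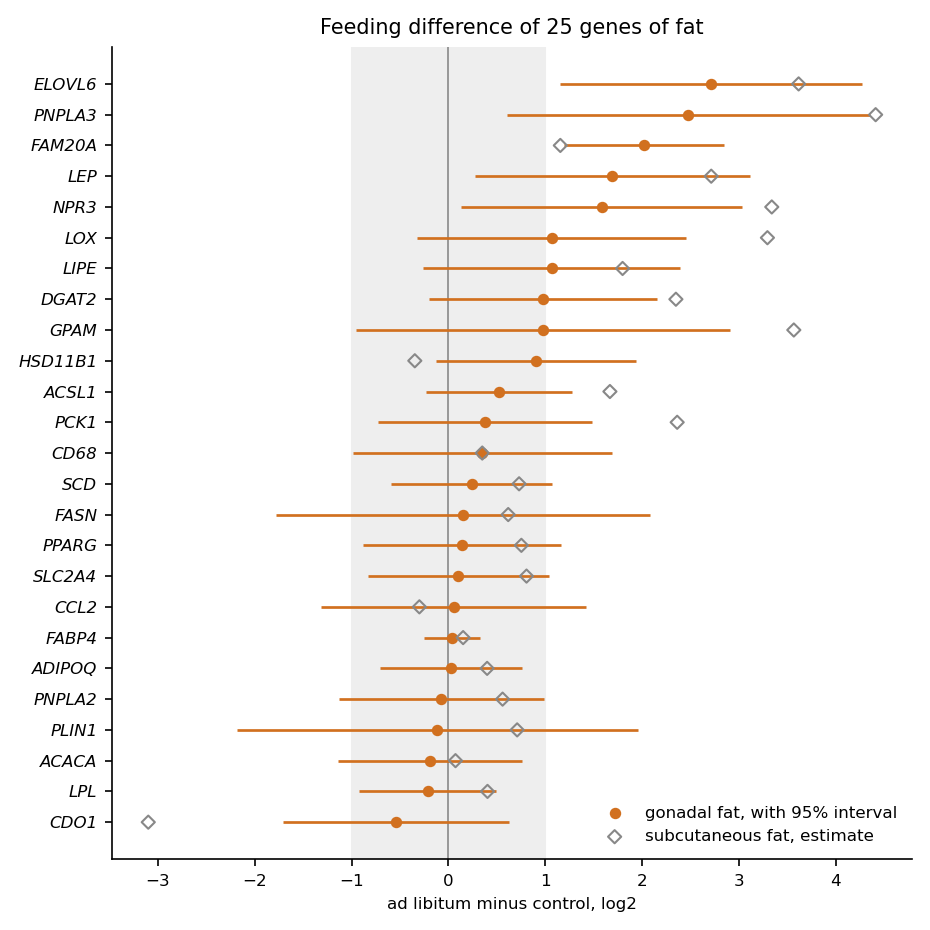
Feeding difference (ad libitum minus control, log2) of 25 genes of fat in gonadal fat, as filled points with 95% intervals, and in subcutaneous fat, as open diamonds without an interval; the grey band spans 1 log2 unit on either side of 0. In gonadal fat the intervals of ELOVL6, PNPLA3, FAM20A, LEP and NPR3 did not reach 0.

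Genes of mitochondrial respiration were measured with narrow intervals and lay close to 0. Of 27 measured subunits and partners of oxidative phosphorylation 14 were higher and 13 lower on average, with a median of 0.00045 and single differences from -0.15 to 0.37. The median was -0.11 without ad libitum dog 2 and 0.07 without ad libitum dog 6. For 26 of the 27 the 95% interval lay within 1 log2 unit of 0. In subcutaneous fat all 27 were higher on average, with a median of 0.51, and 0 passed the adjusted threshold. Of 20 measured genes of fatty acid oxidation 11 were higher and 9 lower (median 0.01), and 17 intervals lay within 1 log2 unit. UCP1, the uncoupling protein of thermogenic fat, stayed below the floor in every gonadal array (highest 2.02).

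No gene of the macrophage, inflammation and chemokine lists had an unadjusted p under 0.05 with all dogs in the fit. At that threshold 1.31% of all genes were higher and 1.1% lower. Lists of this size could therefore hold none without differing from other genes. Of 22 measured macrophage genes 12 were higher and 10 lower on average, with a median of 0.05, and of -0.12 without control dog 3. MSR1, a scavenger receptor, had the smallest p of them (0.86 ± 0.52, 95% interval -0.23 to 1.96), and without ad libitum dog 6 its unadjusted p was under 0.05 (1.18). CD68, a lysosomal marker, differed by 0.35 ± 0.63. Intervals were wide here, and only 7 of 22 lay within 1 log2 unit of 0. CCL2, the chemokine that draws monocytes, differed by 0.05 ± 0.65, with its highest array control dog 9 (8.00). TNF and IL6 stayed below the floor in all gonadal arrays (highest 2.73 and 3.88). All 5 measured mast cell genes were lower on average (median -0.55, and -0.21 without control dog 9), none at an unadjusted p under 0.05. Of 18 T and B cell genes only CD2 and CD3D passed the filter, and in gonadal fat both lay near the floor. Their highest values, 6.51 and 6.73, were those of subcutaneous ad libitum dog 5.

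Matrix and contractile genes were lower on average more often than higher with all dogs in the fit, and the size of the list medians moved with single arrays. Both list medians stayed below 0 when dog 2, 3, 6 or 9 was left out alone. Of 35 measured matrix genes 24 were lower and 11 higher (median -0.12). FN1, fibronectin, was 11.74 to 13.22 in controls and 10.18 to 11.90 in ad libitum dogs (-0.98 ± 0.39, 95% interval -1.80 to -0.17). Its unadjusted p was above 0.05 without control dog 3 (-0.65) or ad libitum dog 2 (-0.72). The matrix median was -0.12 without control dog 3, -0.05 without ad libitum dog 6 and 0.05 without the arrays that held muscle or cilia transcripts. Of 13 measured genes of pericytes and smooth muscle 10 were lower, with a median of -0.64. That median was -0.13 without control dog 3, in which the smooth muscle protein genes CNN1 and TAGLN reached 13.71 and 15.79. Without control dog 3 and ad libitum dog 6 together the pericyte and smooth muscle median was 0.06. The positional transcription factors, which mark where in the body a fat depot arose, were lower for 14 of 15 measured genes (median -0.28), and the median was 0.08 without control dog 3. GATA6, a factor of visceral fat and mesothelium, was 5.68 to 7.39 in controls and 4.84 to 5.97 in ad libitum dogs (-0.79 ± 0.32, 95% interval -1.46 to -0.11). Control dog 3 held its highest value, and without that dog (-0.42) or ad libitum dog 2 (-0.62) the unadjusted p was above 0.05.

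Immediate early genes, which answer stimulation within minutes, were lower on average for 14 of 18 measured genes (median -0.26). Their mean over the list was 10.30 in control dog 9, against 8.21 to 9.62 in the other 8 arrays. FOS reached 14.17 in that dog and 8.96 to 11.95 elsewhere, and its difference was -1.37 ± 0.69. CCN1, a matrix-associated early gene, was 13.90 and 14.19 in control dogs 3 and 9 and 11.45 to 11.92 elsewhere (-1.21 ± 0.58, 95% interval -2.43 to 0.01). Without control dog 9 the median of the list was 0.12.

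Over all 37 gene lists, 480 measured genes in all, 8 genes had an unadjusted p under 0.05 with a higher and 4 with a lower mean, beside 1.31% and 1.1% of all genes. The 29 positive list medians and 8 negative ones had a median size of 0.08, against 0.35 in subcutaneous fat. Besides the genes already named, the 12 were PIK3CB, a catalytic subunit of phosphoinositide 3-kinase (0.45 ± 0.20), PCNA, the sliding clamp of DNA replication (0.30 ± 0.13), XBP1, a factor of the unfolded protein response (-0.31 ± 0.14), and MUC16, a mucin of mesothelium and oviduct (-0.31 ± 0.14). For each of these 4 the unadjusted p was above 0.05 in at least 5 of the 9 fits that left out 1 gonadal array. Leaving out control dog 3 turned the sign of 20 of the 37 list medians.

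**Figure D5:**
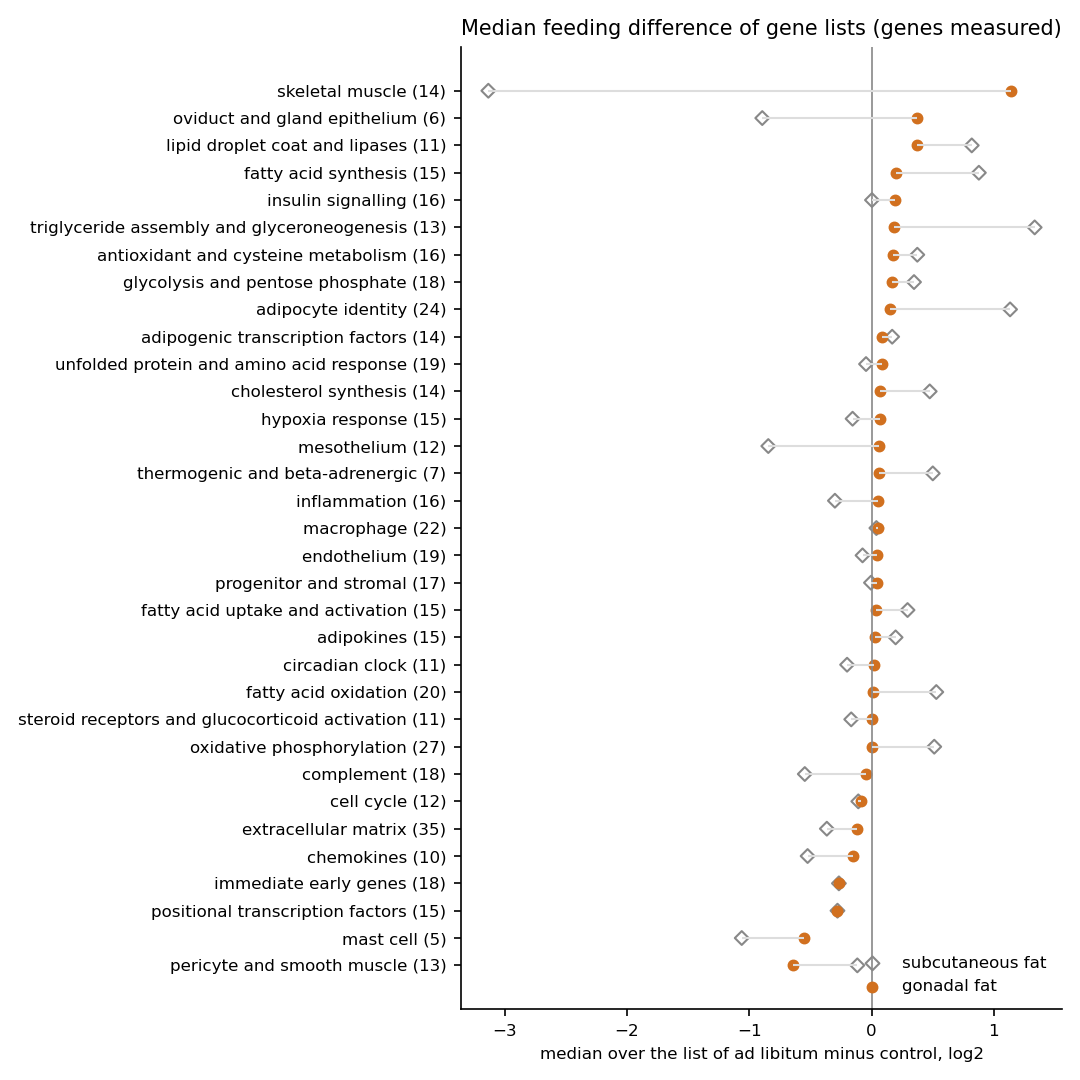
Median feeding difference (ad libitum minus control, log2) of the gene lists with at least 5 measured genes in gonadal fat, as filled points, and in subcutaneous fat, as open diamonds, with the number of genes measured in brackets. The gonadal medians lie near 0 except in a few lists such as skeletal muscle (1.14, and -0.18 without dog 2).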

How the data were processed

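The deposited table holds log2 signals of 43035 probe sets in 18 arrays, made by the authors with GCRMA, a method that corrects background by probe sequence, per the submitters' processing notes; its version was not given in the sources used here. GCRMA gives many dim probe sets nearly the same low value, so differences near the floor may understate the change, and a fold is given as a bound where a group lay under it. Symbols came from the array annotation supplied with the reference: of the 42924 probe sets that are not controls 29254 had 1 symbol, 439 several and 13231 none.

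Tests used limma 3.58.1 under R 4.3.3, and statmod 1.5.0 for the random block. One model with a mean for each feeding group and depot was fitted to the 18 arrays, with moderated errors (16.5 degrees of freedom), and p values were adjusted over 21484 probe sets by the Benjamini-Hochberg method. The script was tested on simulated data. A gene is its probe set with the highest mean. Named were 10 genes with the smallest p in each direction, up to 4 genes of each list, 25 genes of known roles that passed the filter and UCP1, which did not, and the 5 widest gaps in each direction. Defining markers of the tissues checked, such as OVGP1 and ACTA1, were named as well. Members, lists and tests were chosen with earlier results of these data known.

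The labels tie each gonadal array to a subcutaneous array of the same dog. After removing group means, the correlation within a dog ran from -0.07 to 0.53 (median 0.25) and was above 0.1 in 6 of 9 dogs. Feeding varies between dogs, so for the feeding contrast within a depot the dog could enter only as a random block. The interaction of feeding and depot compares the depots within dogs, and the fit reported for it did not use that pairing. Alternatives covered the filter, scaling, moderation, array weights, covariates and left-out arrays.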

Additional observations from a re-analysis of the deposited data

Results flagged for a closer look

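Single arrays lay far from the rest of their feeding group in 20 of 124 groups of values tested, by a rule that flags about 1 in 20 groups by chance. The groups come from the same arrays and share genes, so they are not independent and the count is no test against that rate. Of the 20 flagged, 12 were ad libitum dog 6, whose motile cilia mean of 10.08 stood above 6.07 to 6.31 in the other ad libitum dogs. In that array several fat cell transcripts were low. ADIPOQ stood at 14.08 (others 15.13 to 15.49), FABP4 at 14.87 (15.40 to 15.57), LEP at 10.06 (11.37 to 11.74) and PPARG at 10.38 (12.04 to 12.33). PCK1 stood at 11.07 (13.29 to 14.18), LOX at 4.98 (7.59 to 8.00) and NPR3 at 6.818 (9.60 to 10.22). Its means of adipokine genes, 8.374, of fatty acid uptake genes, 9.019, and of endothelial genes, 6.694, were low as well, the last against 7.94 to 8.18. GJA1, a gap junction protein and the single measured gene of the ovary list, was 5.164 against 6.93 to 7.65.

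Ad libitum dog 2 was high for skeletal muscle genes, 10.66 against 4.28 to 5.14, and for oxidative phosphorylation, 11.83 against 11.06 to 11.26. It was also high for the mean of fatty acid synthesis genes, 10.8 against 9.21 to 9.60, for FASN, 13.76 against 10.47 to 11.14, and for ELOVL6, 8.747 against 5.60 to 6.26.

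Among controls, dog 3 was low for fatty acid oxidation, 9.759 against 10.42 to 10.51, and for SCD, 12.93 against 15.00 to 15.23. Control dog 4 was high for ELOVL6, 5.194 against 3.35 to 3.38, values below the floor.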

How the results depend on the processing

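No probe set passed an adjusted p of 0.05 for gonadal feeding under any alternative (limma). The count with an unadjusted p under 0.05, 531 in the fit reported, ranged from 423 (without ad libitum dog 7) to 1273 (without ad libitum dog 6) when single arrays were left out, with 849 without control dog 1 and 1001 without control dog 4. It was 2151 with no filter, 1767 of them lower, 2013 with array weights, 1060 with the actin difference as a covariate and 1304 without the arrays holding muscle or cilia transcripts. The arrays left out in that last refit were those of gonadal ad libitum dogs 2 and 6 and of subcutaneous control dogs 3 and 4. The dog as a random replicate block gave 527 and no call. In alternatives chosen after seeing the data the count was 797 without dogs 3 and 6, 1124 without dogs 2, 3 and 6, 830 with the adipocyte list mean as a covariate, and 1699 with the gonadal arrays alone under array weights. The interaction of feeding and depot had 10 probe sets past the adjusted threshold with array weights, 2 higher and 8 lower, and 0 otherwise. Which property of the arrays moved these counts was not tested. The actin difference ran from 0.01 to 0.77 over left-out arrays.

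Of 46 genes followed, the sign of at most 7 turned under any setting, the most without control dog 3. List medians near 0 turned sign more easily: 20 of 37 without control dog 3, 5 without dog 6, and 7 and 5 under the rescalings, which moved the median of all genes by no more than 0.03. With 4 and 5 dogs, the interval of the gonadal difference reached past a 2-fold difference in both directions for 443 of 8656 genes. The interval excluded 0 for 208 genes, and values under the floor gave bounds only.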

Other observations

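The dog with the highest lipogenic signals in gonadal fat was also the highest ad libitum dog in subcutaneous fat for several of the same genes. In dog 2, FASN was 13.76 in gonadal and 12.33 in subcutaneous fat, and ELOVL6 was 8.75 and 8.92. ACLY was 13.77 and 13.99 in the same arrays. Dog 6 was close to dog 2 in subcutaneous ELOVL6, at 8.85, but stood at 5.81 in gonadal fat. These values were picked after they were seen, and muscle transcripts were high in the gonadal array of dog 2.

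The feeding difference of CDK12, a kinase of transcription elongation, had opposite signs in the 2 depots. In gonadal fat it was 6.06, 5.98, 5.99 and 6.06 in control dogs 1, 3, 4 and 9 and 6.38 to 6.71 in ad libitum dogs, a difference of 0.53. In subcutaneous fat the difference was -0.75 (adjusted p = 0.0306, limma). The interaction was 1.28 ± 0.23 (adjusted p = 0.309, limma), and the gene's other probe set gave 0.23 in gonadal fat. FOS, the immediate early transcription factor, differed by -1.37 in gonadal and 1.73 in subcutaneous fat (interaction -3.10 ± 0.98, adjusted p = 0.748, limma), with control dog 9 at 14.17 in gonadal fat. TRIM68 differed by -0.42 and 0.26 (interaction -0.68 ± 0.18), and ACP3 by -0.69 and 0.20 (interaction -0.89 ± 0.29), with the same adjusted p.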
